A study of Mus musculus with 18 samples.

Results

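The 7 genes described here encode the repressing arm of the circadian clock and its main kinases: the Period genes Per1, Per2 and Per3, the cryptochromes Cry1 and Cry2, and the casein kinase genes Csnk1d and Csnk1e. They were followed in mouse RPE/choroid, the pigmented cell layer under the retina together with the vascular layer behind it, through the 20 probe sets that the array annotation assigns to one of these symbols alone, of 45101 probe sets in all (34958 with 1 gene symbol, for 18194 genes). Per1, Cry1 and Cry2 each had 1 probe set, Per2 and Csnk1e had 3 each, Csnk1d had 5 and Per3 had 6. No probe set was left out for low signal, so that all 20 are accounted for below. The leading probe set of a gene is the one with the largest spread over the arrays, taken without regard to group.

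All animals were male C57BL6/J mice, 2 months old by the sample labels and 6 to 8 weeks old by the methods, kept in 12 h of light and 12 h of darkness. Each received a single intravitreal injection of 1 μL, which held triamcinolone acetonide (TAA, 25 μg), dexamethasone (Dex, 10 μg) or the solvent of both steroids alone, balanced salt solution (BSS). TAA and Dex are synthetic glucocorticoids. Tissue was taken at day 30 (1 month) or day 7 (1 week), which gave the groups TAA day 30, Dex day 30, BSS day 30, TAA day 7, Dex day 7 and BSS day 7, with 3 arrays each and each array from a separate animal, chosen among 4 by RNA quality. Every group had been injected, and no uninjected eye was analysed here. The doses of the steroids differed, so that steroid and dose cannot be told apart, and the day goes with the age of the animals, the time since injection and the date of collection, which cannot be told apart either. Tissue was collected in the morning within 1 h, and no source used here names the clock hour of either day.

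The values are log2 expression, centred by the authors' software so that each probe set has a median of 0 over the 18 arrays; they give differences between arrays and no level. For this reason neither genes nor probe sets can be ranked by level, and whether markers of RPE or choroid were present could not be checked. Array medians lay between -0.0443 and 0.0202 and the SD of an array between 0.192 and 0.416. Markers of rod photoreceptors, cells of the adjoining retina, varied widely: the rod score, the mean over 21 of 24 marker genes, ranged from -1.25 to 3.31 at day 30 and from -1.29 to 1.83 at day 7, and 30 of the 31 rod probe sets had a higher mean at day 30, none of them past the adjusted threshold. The median difference between the days was 1.45 over the rod probe sets, -0.09 over 23 RPE probe sets, -0.19 over 14 of choroid vessels and -0.02 over 32 of skeletal muscle, against -0.02 over all. The rod median was not alike among treatments: 1.28 after TAA (30 of 31 above 0), -0.12 after Dex (13 of 31) and 3.08 after BSS (31 of 31). The part of this in the day differences of single treatments below was not tested. In tissue RNA of this kind, fewer cells of a type and less RNA per cell cannot be told apart.

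In the mammalian clock, Bmal1 (the product of Arntl) pairs with Clock or Npas2, binds E-box elements and drives the Period and cryptochrome genes, whose proteins return to the nucleus and repress that pair. Casein kinases delta and epsilon phosphorylate the Period proteins and set how long they last, and in this way the period of the cycle. Per1 is also a classical target of the glucocorticoid receptor, and the eye holds clocks of its own in the retina and the RPE.

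The promoter letters are shown first because E-box and D-box elements are the routes by which clock factors reach these genes. Windows of 300 bases, from 250 before to 50 after the annotated start, came from RefSeq on build GRCm38.p6 and were held for 5 of the 7 genes (Per1, Per3, Cry1, Cry2 and Csnk1e). The motifs sought, on both strands and with capitals marking each match below, were the E-box CACGTG, its variant CACGTT (read as AACGTG on the other strand), the D-box TTATGTAA bound by the factors Dbp, Tef, Hlf and Nfil3, and the full glucocorticoid response element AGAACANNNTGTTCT. All 4 sequences are written along the strand of their gene, for Per1 at chr11:69098753-69098818 (plus), for Per3 at chr4:151044786-151044900 (minus), for Cry1 at chr10:85185079-85185163 (minus) and for Cry2 at chr2:92434200-92434265 (minus).
Per1: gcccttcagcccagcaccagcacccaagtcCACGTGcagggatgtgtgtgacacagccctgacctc
Per3: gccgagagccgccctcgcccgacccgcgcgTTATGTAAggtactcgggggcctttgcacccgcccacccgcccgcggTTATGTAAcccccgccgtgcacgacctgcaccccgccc
Cry1: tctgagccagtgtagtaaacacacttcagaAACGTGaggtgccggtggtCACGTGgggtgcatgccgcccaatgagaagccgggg
Cry2: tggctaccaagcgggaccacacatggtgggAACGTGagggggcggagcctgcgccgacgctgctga
Per1 held an E-box that begins 166 bases before the start, in 1 of its 2 windows, that of a start inside the gene, Cry1 an E-box at 60 and the variant at 79 bases, Cry2 the variant at 166 bases, and Per3 a pair of D-boxes at 205 and 158 bases. Among 32851 windows of this kind over the genome, 7.15% held the E-box, 4.68% its variant, 0.938% the D-box and 0.00913% the full glucocorticoid response element. The last was found in no window of these 5 genes, and the Csnk1e windows held none of the 4. As so few windows hold the full glucocorticoid response element, its absence here cannot show that a gene lacks one. Elements with other letters or outside the windows were not sought. A match is a description of the letters and not of a bound site.

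The Period genes were lower at day 30 than at day 7. Over the 9 arrays of each day, Per2, Per3 and Per1 passed the threshold in limma, with log2 differences of -1.25, -0.79 and -0.65, which is 2.37-fold, 1.73-fold and 1.57-fold lower. After quantile normalization, applied here to the RMA values already centred per probe set, Per3 kept its call while Per2 and Per1 had an adjusted p = 0.0508 in limma. Per1 also lost its call by the methods' t-test after adjustment (adjusted p = 0.0508). These were 3 of the 20 probe sets, all in the same direction, where 0.399% of all probe sets were called and 0.308% were called lower. At an unadjusted p under 0.05, 10 of the 20 were lower at day 30 and 0 were higher, against 8.17% of all probe sets in the lower direction. The value was below 0 for 17 of 20, against 56.9% of all. When limma compared all 6 groups at once by its F-test, Per3 alone of the 20 was called (F of 25.6, adjusted p = 0.00705), where 0.0155% of all probe sets were, while Per2 had an adjusted p = 0.0821 and Per1 an adjusted p = 0.173.

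Per3 (chr4:150997018-151044707; gene positions are those of RefSeq on GRCm38.p6), the Period gene that the core loop needs least in mice, gave the sharpest separation. Its leading probe set 1421087_at read -0.38, -0.63 and -0.31 in TAA day 30 eyes, against 0.19, 0.24 and 0.49 in TAA day 7 eyes. The Dex arrays read -0.44, -0.79 and -0.30 at day 30, against 0.47, 0.54 and 0.40 at day 7, and the BSS arrays -0.19, -0.42 and -0.33 at day 30, against 0.35, 0.40 and 0.28 at day 7. All 9 arrays of day 30 thus lay below all 9 of day 7, with -0.19 as the highest value of day 30 and 0.19 as the lowest of day 7. Such a separation downwards was found for 0.12% of all probe sets and, among the 20, for Per3 and Per2 only. The difference was -0.79 (SE 0.071, 95% interval -0.94 to -0.64, adjusted p = 0.000152), the third smallest p of the array. By mean, the order was Dex day 7, BSS day 7, TAA day 7, BSS day 30, TAA day 30 and Dex day 30. The arrays of neighbouring groups overlapped except at the step between the days and, by a margin of under 0.01, between Dex and BSS at day 7.

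The other 5 Per3 probe sets divided. Differences between the days were -0.50 (SE 0.14) for 1458176_at, -0.33 (SE 0.095) for 1442243_at and -0.25 (SE 0.10) for 1441445_at, with adjusted p-values between 0.131 and 0.299, and these 3 followed the leading probe set over the 18 arrays with r of 0.73, 0.787 and 0.601. On single arrays 1458176_at lay between -0.88 and 0.15 at day 30, against -0.03 to 0.79 at day 7, and 1442243_at between -0.57 and 0.24 at day 30, against -0.02 to 0.39 at day 7, so that their days overlapped. The remaining pair, 1421086_at and 1460662_at, had differences of -0.06 and 0.02 and r of 0.102 and -0.263 with it. The mean over all 6 probe sets still differed between the days, by -0.32 (SE 0.056, adjusted p = 0.0201 among genes).

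Per2 (chr1:91415977-91459351), the Period gene whose loss shortens and then abolishes free-running rhythms in mice, had the largest difference of the 20. Its leading probe set 1417602_at read -0.45, -1.01 and -0.55 in TAA day 30 eyes, against 0.58, 0.47 and 0.57 in TAA day 7 eyes. The Dex arrays read -0.94, -1.63 and -0.60 at day 30, against 0.57, 0.37 and 0.15 at day 7, and the BSS arrays -0.15, -0.68 and -1.18 at day 30, against 0.18, 0.45 and 0.70 at day 7. The days did not overlap, and the spread within day 30 (SD 0.44 over 9 arrays) was wider than within day 7 (SD 0.19). The difference was -1.25 (SE 0.15, 95% interval -1.57 to -0.93, adjusted p = 0.00191). The order by mean was TAA, BSS and Dex at day 7, then BSS, TAA and Dex at day 30, and within each day the arrays of all groups overlapped. Of the other Per2 probe sets, 1457350_at differed by -0.29 (SE 0.068, adjusted p = 0.0846), with arrays between -0.44 and 0.05 at day 30, against -0.09 to 0.38 at day 7, and correlated with the leading one (r of 0.733), whereas 1417603_at differed by -0.03 and had an r of 0.095.

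Per1 (chr11:69095108-69109965), the Period gene induced fastest by light and by hormones, followed the same direction with a different pattern among treatments. Its only probe set, 1449851_at, read -0.16, -0.61 and -0.34 in TAA day 30 eyes, against 0.87, 0.29 and 0.86 in TAA day 7 eyes. The Dex arrays read -0.52, -0.35 and 0.06 at day 30, against 0.37, 0.45 and 0.32 at day 7, and the BSS arrays -0.03, -0.49 and -0.30 at day 30, against 0.03, 0.06 and -0.15 at day 7. In TAA and in Dex eyes the days were apart, while the BSS arrays of the days overlapped. Over all treatments the difference was -0.65 (SE 0.10, 95% interval -0.86 to -0.43, adjusted p = 0.0129). By mean, Per1 stood highest in TAA day 7 eyes (0.67 ± 0.33, SD, n = 3), then in Dex day 7 eyes (0.38 ± 0.064), BSS day 7 eyes (-0.02 ± 0.11), and near -0.27 or lower in the 3 groups of day 30. TAA and Dex overlapped at day 7, Dex and BSS did not, and from BSS day 7 downwards each group overlapped with the next.

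**Figure D1:**
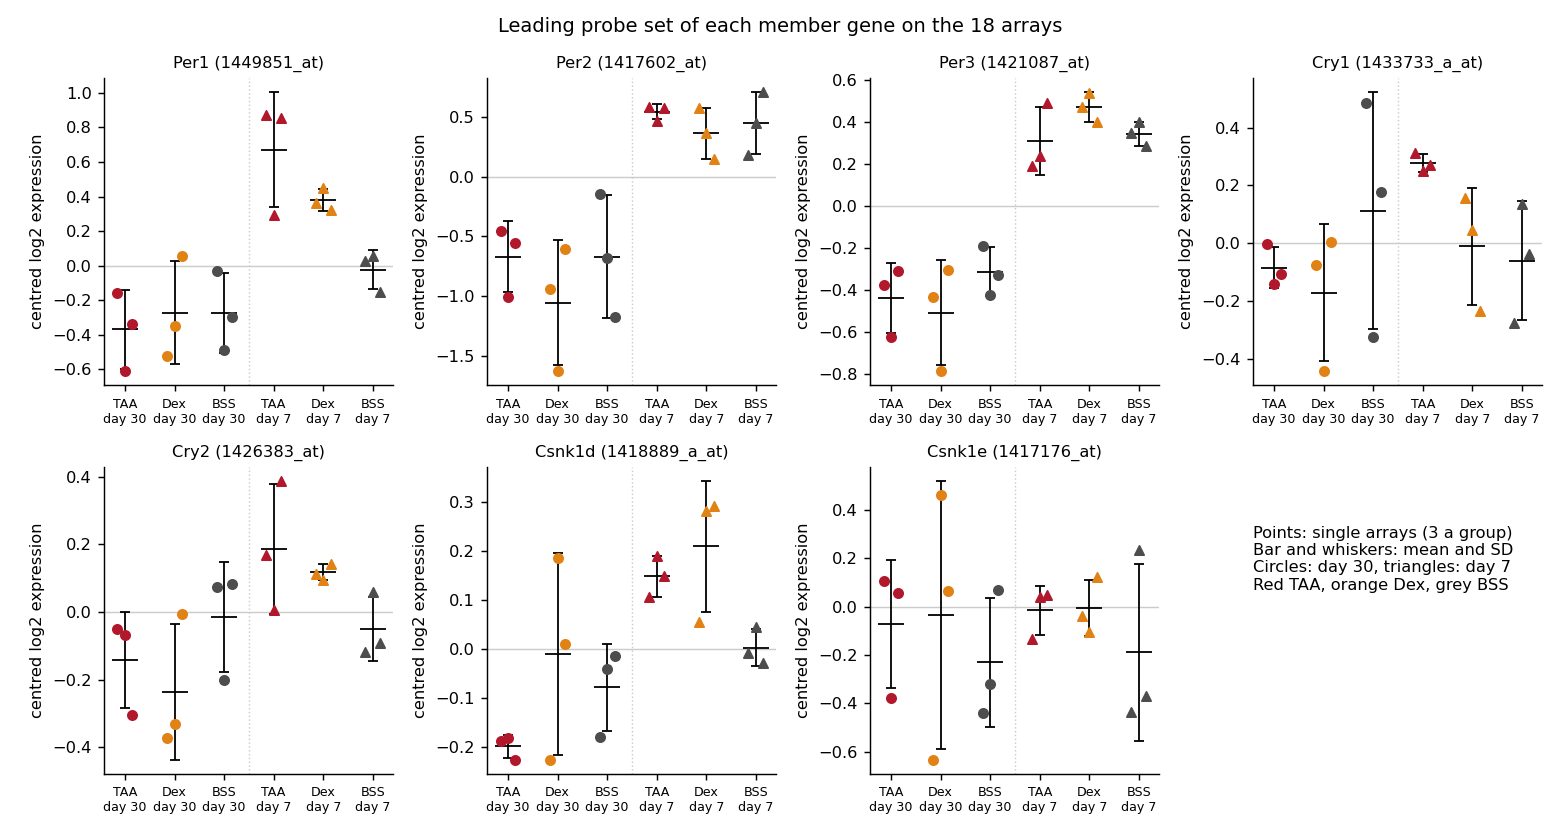
Centred log2 expression (y axis) of the leading probe set of each of the 7 genes on the 18 arrays, by treatment and day (x axis), with circles for day 30, triangles for day 7, and bar and whiskers for the mean and SD of 3 arrays. Per2 and Per3 show no overlap between the days (Per3 at most -0.19 at day 30 and at least 0.19 at day 7), and Per1 is highest after TAA at day 7.

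Within single treatments the same contrasts rest on 3 arrays a side and few passed. After Dex, Per3 fell by 0.98 on the log2 scale (SE 0.12, adjusted p = 0.0279), 1 of 4 probe sets called in that comparison (0.00887% of all), a call that was lost without any one of 6 single arrays, with the replicate number as a block or after quantile normalization. After TAA, 0 of the 20 were called by limma, where 0.00222% of all probe sets were, with log2 differences of -1.04 for Per1 (adjusted p = 0.207), -1.21 for Per2 (adjusted p = 0.458) and -0.74 for Per3 (adjusted p = 0.197). After BSS, 0 of the 20 were called as well, with 0.00222% of all called, and the differences were -0.25 for Per1 (95% interval -0.62 to 0.13), -1.11 for Per2 (adjusted p = 0.361) and -0.66 for Per3 (adjusted p = 0.279). Per2 and Per3 thus had differences below -0.6 under all 3 injections, vehicle included, whereas the Per1 values were spread from -1.04 after TAA to -0.25 after BSS.

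Weaker rules counted more of them. At an unadjusted p under 0.05, 6 of 20 were lower at day 30 after TAA (3.24% of all), 7 after Dex (2.2%) and 4 after BSS (5.52%). All 3 arrays of day 30 lay below all 3 of day 7 for 11 of 20 after TAA (7.22%), among them at least 1 probe set of each of the 7 genes, for 5 of 20 after Dex (4.72%) and for 7 of 20 after BSS (6.97%). The one probe set apart in the other direction was Csnk1e 1435373_at after Dex (1 of 20, against 3.14% of all), with a difference of 0.10. Probe sets of one gene share their transcript, so these counts are not 20 separate measurements.

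Whether the day difference itself depended on the injection was tested by interaction. For Per1 the day difference after TAA minus that after BSS was -0.79 (SE 0.25, 95% interval -1.32 to -0.26), the largest of the 7 leading probe sets, with an adjusted p = 0.994. For Per2 the same quantity was -0.10 (95% interval -0.88 to 0.69) and for Per3 -0.09 (95% interval -0.46 to 0.28). The day difference after Dex minus that after BSS was -0.40 for Per1 (95% interval -0.93 to 0.13), -0.30 for Per2 (95% interval -1.09 to 0.48) and -0.32 for Per3 (95% interval -0.69 to 0.05). Of the 20, limma called 0 for TAA and 0 for Dex, as of all probe sets (0% and 0%), and at an unadjusted p under 0.05 there were 2 for TAA (Per1 and Cry1; 3.03% of all) and 1 for Dex (Cry2; 2.97%).

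**Figure D2:**
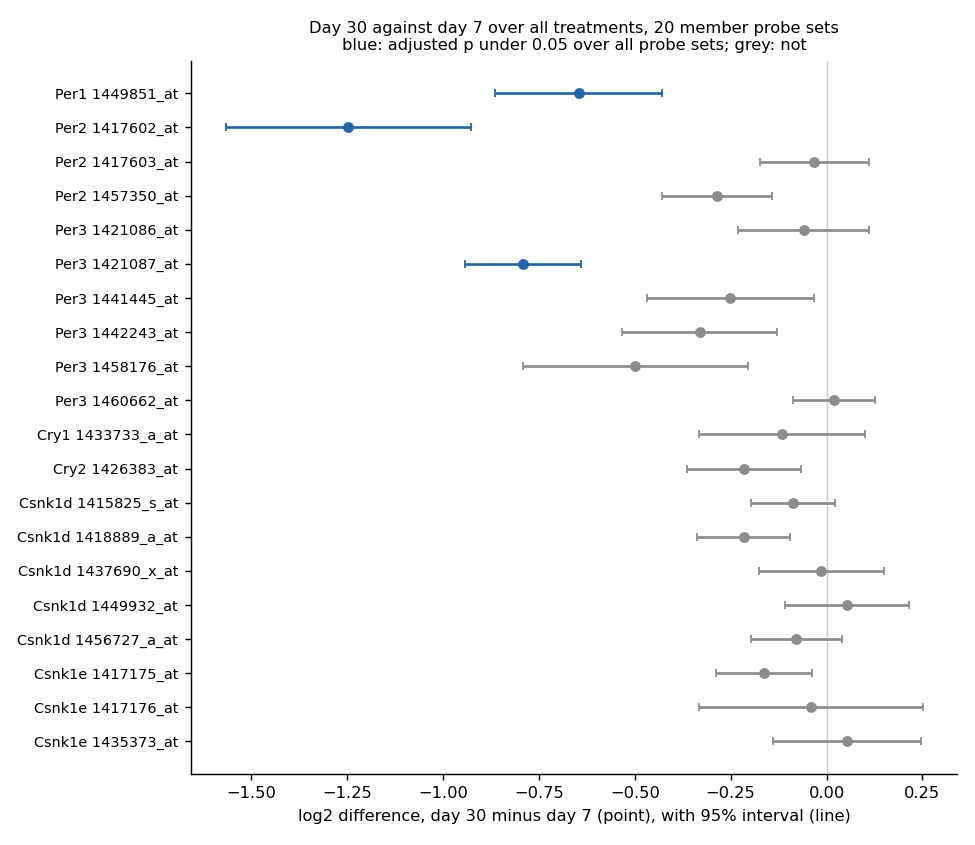
Log2 difference, day 30 minus day 7 over all treatments (x axis; point), with its 95% interval (line), for each of the 20 probe sets (y axis), in blue where the adjusted p was under 0.05. The 3 blue points, for Per2 at -1.25, Per3 at -0.79 and Per1 at -0.65, are the lowest, and the next, Per3 1458176_at at -0.50, has an interval that overlaps that of Per1.

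The cryptochromes, the stronger repressors of the loop, differed less between the days than the Period genes. Cry1 (chr10:85131700-85185054, probe set 1433733_a_at) read -0.0037, -0.14 and -0.11 in TAA day 30 eyes, against 0.31, 0.25 and 0.27 in TAA day 7 eyes. Its Dex arrays read -0.07, -0.44 and 0.0037 at day 30, against 0.16, 0.04 and -0.24 at day 7, and its BSS arrays 0.49, -0.33 and 0.18 at day 30, against -0.28, 0.13 and -0.04 at day 7. Only the TAA arrays separated by day, and BSS day 30 had the widest spread of any group (SD 0.41). Over all treatments the difference was -0.12 (SE 0.10, 95% interval -0.33 to 0.10, adjusted p = 0.655). By treatment it was -0.36 after TAA (95% interval -0.73 to 0.01), -0.16 after Dex and 0.17 after BSS (95% interval -0.20 to 0.55). The TAA value minus the BSS value was -0.53 (95% interval -1.06 to -0.0065, adjusted p = 0.994 for this interaction).

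Cry2 (chr2:92403646-92434085, probe set 1426383_at) read -0.05, -0.07 and -0.31 in TAA day 30 eyes, against 0.17, 0.0059 and 0.39 in TAA day 7 eyes. Its Dex arrays read -0.37, -0.33 and -0.0059 at day 30, against 0.11, 0.10 and 0.14 at day 7, and its BSS arrays 0.08, -0.20 and 0.08 at day 30, against -0.12, 0.06 and -0.09 at day 7. TAA and Dex arrays separated by day and BSS arrays did not. The difference over all treatments was -0.22 (SE 0.070, 95% interval -0.36 to -0.07, adjusted p = 0.200). By treatment it was -0.33 after TAA, -0.35 after Dex and 0.04 after BSS (95% interval -0.22 to 0.30). The interaction with BSS came to -0.36 for TAA (95% interval -0.73 to 0.0019) and -0.39 for Dex (95% interval -0.76 to -0.02), neither past the adjusted threshold.

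Cry2 also moved with the rod markers. The rod scores fell into separate clusters on each day, with a gap of 2.17 at day 30 and of 1.48 at day 7, so no correlation over a whole day is given. At day 30, Cry2 read from -0.07 to 0.08 on the 5 arrays with rod scores of 2.24 and above (2 TAA, 1 Dex and 2 BSS), and from -0.37 to -0.20 on the 4 with scores of 0.070 and below (1 TAA, 2 Dex and 1 BSS). At day 7, Cry2 read from 0.10 to 0.39 on the 3 arrays with the higher rod scores (1 TAA and 2 Dex) and from -0.12 to 0.17 on the other 6. The clusters were formed from measured values, so they were not compared by a test. Per3 also read higher on those 3 arrays of day 7, from 0.47 to 0.54, than on the other 6, from 0.19 to 0.40, while at day 30 its ranges overlapped between the clusters. With the rod score as a covariate the day difference of Cry2 was -0.31 and passed (adjusted p = 0.0216). The Period genes kept their calls in that fit, with differences of -0.74 for Per1 (adjusted p = 0.00587), -1.30 for Per2 (adjusted p = 0.00587) and -0.83 for Per3 (adjusted p = 0.000445).

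The casein kinases gave no call in the comparisons above, though with array weights Csnk1d 1418889_a_at was called between the days (-0.23, adjusted p = 0.0239) and Csnk1e 1417175_at between the days after BSS. Csnk1d (chr11:120957709-120991350) is read by 5 probe sets, of which the leading one, 1418889_a_at, stood at -0.19, -0.18 and -0.23 in TAA day 30 eyes, against 0.11, 0.19 and 0.15 in TAA day 7 eyes. Its Dex arrays read -0.23, 0.19 and 0.009 at day 30, against 0.06, 0.28 and 0.29 at day 7, and its BSS arrays -0.18, -0.04 and -0.01 at day 30, against -0.0090, 0.05 and -0.03 at day 7. The TAA arrays separated by day and those of Dex and BSS did not. Its day difference was -0.22 (SE 0.057, 95% interval -0.34 to -0.10, adjusted p = 0.112), with -0.35 after TAA (95% interval -0.56 to -0.14), -0.22 after Dex and -0.08 after BSS, and those of the other 4 lay between -0.09 and 0.05. The 5 did not vary together over the arrays, with r between -0.657 and 0.617.

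Csnk1e (chr15:79417852-79455579) is read by 3 probe sets, of which the leading one varied among single animals more than between groups. Its leading probe set 1417176_at stood at 0.11, -0.38 and 0.06 in TAA day 30 eyes, against -0.13, 0.04 and 0.05 in TAA day 7 eyes. Its Dex arrays read -0.63, 0.46 and 0.07 at day 30, against -0.04, -0.10 and 0.12 at day 7, and its BSS arrays -0.44, -0.32 and 0.07 at day 30, against -0.44, 0.23 and -0.37 at day 7. Each group of day 30 overlapped with each of day 7 for this probe set. Day differences of the 3 probe sets were -0.16 (1417175_at, 95% interval -0.29 to -0.04, adjusted p = 0.241 in limma), -0.04 (1417176_at, 95% interval -0.33 to 0.25) and 0.05 (1435373_at). For 1417175_at all arrays of day 30 lay below all of day 7 after TAA and after BSS, but not after Dex.

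The effect of each steroid was then taken against BSS of the same day. At day 7, Per1 stood 0.69 above BSS after TAA (log2, SE 0.18, 95% interval 0.32 to 1.07, 1.62-fold) and 0.40 above BSS after Dex (SE 0.18, 95% interval 0.03 to 0.78, 1.32-fold), and all 3 arrays of each steroid lay above all 3 of BSS. Neither passed the threshold over all probe sets (adjusted p = 0.996 after TAA and adjusted p = 0.99997 after Dex). Both comparisons share the same 3 BSS arrays. No BSS array of day 7 was among the 3 with rod scores of 1.22 and above, which came from 1 TAA and 2 Dex eyes, and with the rod score as a covariate the Per1 differences were 0.63 after TAA and 0.28 after Dex. Against BSS at day 7, 1 of 32 skeletal muscle probe sets was above 0 after TAA (median -0.52), and 13 of 14 choroid vessel probe sets were above 0 after Dex (median 0.28); the part of these in the Per1 values was not tested. For Per2 the differences from BSS were 0.10 after TAA and -0.08 after Dex, and for Per3 -0.04 after TAA and 0.13 after Dex, each with a 95% interval across 0. For the cryptochromes they were 0.34 after TAA and 0.05 after Dex (Cry1), and 0.24 after TAA and 0.17 after Dex (Cry2), again with intervals across 0.

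Over the 20 probe sets at day 7, limma called 0 after TAA (0.00222% of all called) and 0 after Dex (0% of all). At an unadjusted p under 0.05 there was 1 after TAA (3.93% of all) and 1 after Dex (2.23%), Per1 in both. After TAA, 4 lay wholly above BSS (Per1, Cry1 and the Csnk1d probe sets 1418889_a_at and 1449932_at; 4.55% of all) and 1 wholly below (Csnk1d 1456727_a_at; 6.26%). After Dex, 4 lay wholly above BSS (the leading probe sets of Per1, Per3, Cry2 and Csnk1d; 4.18%) and 1 wholly below (Per2 1457350_at; 4.77%).

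At day 30 the Per1 values lay near those of BSS. Per1 differed from BSS by -0.10 after TAA (95% interval -0.47 to 0.28) and by -0.00083 after Dex (95% interval -0.38 to 0.38). After Dex the leading probe sets of the Period and cryptochrome genes other than Per1 were negative, from -0.39 for Per2 (95% interval -0.94 to 0.17) to -0.19 for Per3 (95% interval -0.46 to 0.07). Of the other Per2 and Per3 probe sets, 5 were above 0, up to 0.26 (Per3 1421086_at), and 2 below. After TAA the leading probe sets of the Period and cryptochrome genes lay between -0.20 (Cry1) and -0.0015 (Per2). That of Csnk1d lay at -0.12, while that of Csnk1e was above 0, from 0.052 to 0.31 when single arrays were left out. Of the 20, limma called 0 after TAA and 0 after Dex, as of all probe sets (0% and 0%), with 0 after TAA (2.63% of all) and 0 after Dex (4.23%) at an unadjusted p under 0.05. Wholly below BSS were 2 after TAA (Per3 1441445_at and Csnk1d 1418889_a_at; 3.11% of all), and after Dex 0 were apart from BSS in either direction (4.84%). After Dex all 14 choroid vessel probe sets were above BSS (median 0.43) and 0 of the 31 rod probe sets were (median -1.48). After TAA all 14 choroid vessel probe sets (median 0.25) and 1 of the 31 rod probe sets (median -0.73) were above BSS. Of 32 skeletal muscle probe sets, 3 were above BSS after TAA (median -0.27) and 22 after Dex (median 0.05). The part of these in the values above was not tested. In limma's joint F-test of the treatments against BSS of their own day, 0 of 20 were called (0% of all), with 1, Per1, at an unadjusted p under 0.05 (1.73% of all).

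**Figure D3:**
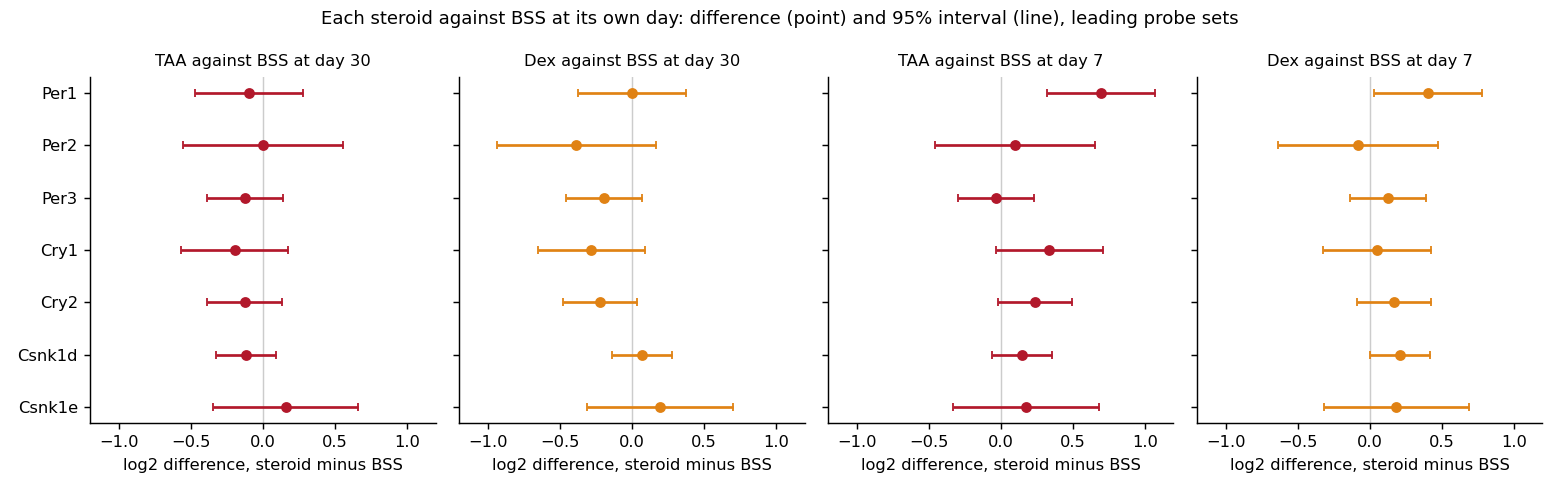
Log2 difference of each steroid from BSS of the same day (x axis; point) with its 95% interval (line) for the leading probe set of each of the 7 genes (y axis), TAA in red and Dex in orange, with day 30 in the panels on the left. Per1 at day 7 (0.69 after TAA and 0.40 after Dex) is the one gene whose interval lies above 0 for both steroids.

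TAA was set against Dex at each day, in 20 probe sets and at unequal doses. At day 7 Per1 differed by 0.29 (95% interval -0.08 to 0.67) and Cry1 by 0.29 (95% interval -0.08 to 0.66), and Cry1 was the 1 probe set with all TAA arrays above all Dex arrays (5.7% of all). At day 30 the widest difference among the leading probe sets was that of Per2, 0.39 (95% interval -0.17 to 0.94), and the 1 with all TAA arrays below all Dex arrays was Csnk1e 1417175_at (2.84%). limma called 0 at day 7 (0% of all) and 0 at day 30 (0%), with 0 at an unadjusted p under 0.05 on either day (2.7% of all at day 7 and 1.91% at day 30). The intervals thus leave room for a difference in Per1 between the steroids of up to 0.67 (log2) at day 7.

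Other clock genes were called in both directions between the days. Of 17 other core clock and clock output genes, 16 were measured by 40 probe sets, of which 5 (of 4 genes) were higher and 7 (of 5 genes) lower at day 30, where 0.399% of all probe sets were called; the other 7 measured genes had no call. The higher ones were the activators, Arntl by 1.85 (SE 0.14, adjusted p = 5.66e-05), Npas2 by 1.62 (adjusted p = 0.000152) and Clock by 0.44 (adjusted p = 0.0129), and Nfil3, the D-box repressor, by 0.81 (adjusted p = 0.00656). Arntl read between 0.40 and 1.25 at day 30, against -1.70 to -0.40 at day 7, and its days did not meet. At day 7 it stood 0.75 above BSS after TAA (SE 0.25) and 0.34 above BSS after Dex (SE 0.25), neither past the adjusted threshold. The lower ones were Nr1d1 and Nr1d2, the nuclear receptors that repress Arntl, by -0.59 and -0.63, the D-box activators Tef and Dbp by -0.72 and -0.64, and Ciart, a further repressor of the loop, by -0.68, with adjusted p-values between 0.00129 and 0.0364. The median over the 40 was -0.09, against -0.02 over all probe sets. Clock, Nr1d1 and Nr1d2 are outside the 6 genes of largest difference and were added after their values were seen. At day 7 none of the 40 was called after TAA or Dex against BSS, with medians of 0.08 each, where 0.00222% and 0% of all probe sets were called.

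The genes of proteins that degrade, modify or accompany PER and CRY gave no call between the days. This list held 24 genes, among them Btrc, which marks Period proteins for destruction, and further casein kinases, phosphatases and ubiquitin proteases. Of its 76 probe sets, for 22 measured genes, 0 were called between the days, where 0.399% of all probe sets were, with a median of 0.01 and 42 of 76 above 0; its difference from the clock list was not tested.

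The glucocorticoid response list, 16 genes and 38 probe sets, gave 1 call between the days in limma, where 0.399% of all probe sets were called. It was probe set 1420772_a_at of Tsc22d3, a classical glucocorticoid-induced gene, lower by 0.99 at day 30 (SE 0.14, adjusted p = 0.00736). The other probe sets of Tsc22d3 were not called. In TAA day 7 eyes 1420772_a_at stood 0.62 above BSS (SE 0.25, adjusted p = 0.996), and in Dex day 7 eyes 0.37 above BSS (SE 0.25, adjusted p = 0.99997). The median of the 38 against BSS at day 7 was 0.21 after TAA, with 32 of 38 above 0, and 0.05 after Dex, with 26 of 38 above 0. At day 30 the median was 0.10 after TAA (32 of 38 above 0) and 0.17 after Dex (30 of 38 above 0). None of the 38 passed in any of these comparisons with BSS, where 0.00222% of all probe sets were called after TAA at day 7 and 0% in the others. The score of the list, its mean over genes, was highest on TAA day 7 replicate 1, at 0.48, and this array also held the highest Per1 value, 0.87.

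The genes most like each member over the 18 arrays were sought by Pearson's r, with the best probe set of each gene, as a description. The arrays share their days, and any gene that differs by day will correlate with Per1, Per2 and Per3. For Per2 the 4 highest were Nr1d2 (0.942), Tef (0.929), Ciart (0.907) and the cell cycle kinase gene Wee1 (0.883), and the lowest were Npas2 (-0.945) and Tmem45a (-0.904). For Per3 they were Ciart (0.94), Nr1d2 (0.928), Tef (0.91) and Fibin (0.866), and the lowest were Npas2 (-0.949) and Proser2 (-0.941). Per1 had another set, led by Tsc22d3 (0.863), Polr3f (0.858), Tmem19 (0.835) and Slc9a3r1 (0.817), with Creld2 (-0.855) and Gsg1l (-0.819) the lowest. The Tsc22d3 probe set was 1420772_a_at, which like Per1 was called lower at day 30. Cry2 was most like Hlf (0.906), a D-box activator, Usp2 (0.846), a ubiquitin protease of the turnover list, Rora (0.822) and Fam117b (0.818), and least like Adamts4 (-0.837) and 9530047P18Rik (-0.826). Cry1 was most like Actr6 (0.892), Rbm7 (0.885), Ndfip1 (0.882) and Vps18 (0.869), none of them a clock gene of the lists, and least like Nfatc4 (-0.89) and Rabgap1 (-0.874). Among the members themselves the closest pair was Per2 and Per3 (0.928), followed by Per1 and Cry2 (0.807), and Cry1 with Csnk1d had an r of -0.015.

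Because the days form clusters, relations to Arntl and to the glucocorticoid score were computed within the 9 arrays of each day. At day 7, Cry1 was higher on arrays with higher Arntl, with a Pearson r of 0.882 (exact two-sided permutation p = 0.00196). The Spearman rho was 0.883 (exact permutation p = 0.00308) and did not pass over the 42 relations (adjusted p = 0.0631). Without the 2 arrays farthest from the median of Arntl, r was 0.766, and with each value taken against the mean of its treatment group it was 0.808 (exact permutation within groups, p = 0.0185). The adjusted p of this Pearson r was 0.0411 over the 42 relations computed, which include 14 with the rod score, and 0.0549 over the 28 without those. The call thus rests on counting the rod relations, among them that of Cry2 at day 30, which had a smaller permutation p. Per1 and Arntl had an r of 0.856 at day 7 (rho of 0.867, r without the 2 farthest arrays 0.806, within groups 0.65, adjusted p = 0.0607 from the exact permutation test). Per3 and Arntl had an r of 0.10 within day 7 (0.602 without the 2 farthest arrays, 0.428 within groups) and of 0.03 within day 30 (adjusted p = 0.878 and adjusted p = 0.941 by exact permutation). Cry2 and Arntl had an r of 0.768 at day 7 (adjusted p = 0.124 by exact permutation) and of 0.731 at day 30 (adjusted p = 0.141 by exact permutation), with 0.56 and 0.83 within groups. At day 30 neither Cry1 (r of 0.337, adjusted p = 0.607 by exact permutation) nor Per1 (r of 0.565, adjusted p = 0.325 by exact permutation) passed with Arntl, and whether the relations differ between the days was not tested. Per1 and the glucocorticoid score had an r of 0.733 at day 7 (adjusted p = 0.124 by exact permutation), 0.473 within groups, and an r of 0.065 at day 30.

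**Figure D4:**
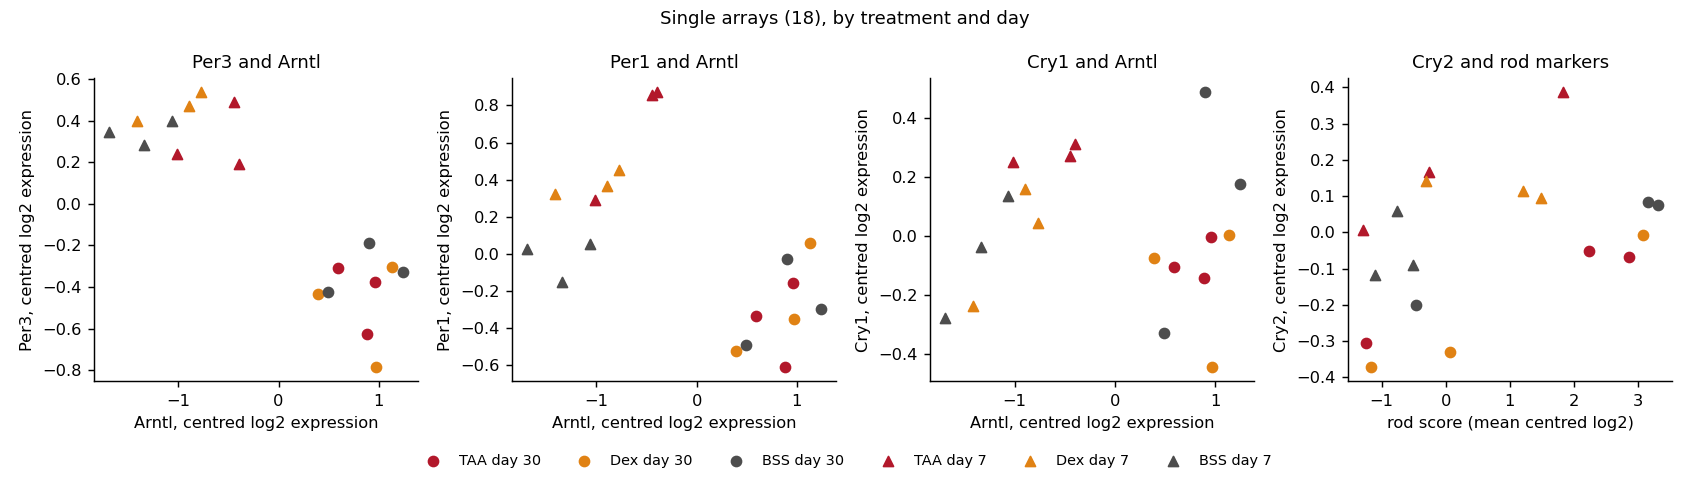
Single arrays (circles day 30, triangles day 7; red TAA, orange Dex, grey BSS): Per3, Per1 and Cry1 (y axes, centred log2) against Arntl (x axis, centred log2), and Cry2 against the rod score (x axis, mean centred log2 of rod markers). Per3 splits by day (r of 0.10 within day 7), while Cry1 and Per1 are higher where Arntl is higher among the day 7 arrays (r of 0.882 and 0.856), and the rod scores fall into separate clusters.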

How the data were processed

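RNA of 18 eyes was hybridised to Affymetrix Mouse430_2 arrays (labelled by a two-cycle protocol per the sample labels and by a 3′ IVT kit per the methods). The authors summarised probe sets by RMA in GeneSpring and deposited log2 values centred on the median of all samples; scanner files were not used here. The values bear this out (the largest probe set median was 5e-07 in size), so no filter on dim probe sets could be set, and the number of arrays limits the precision. limma (3.58.1, R 4.3.3) fitted 1 mean per group over all 45101 probe sets (12 residual and 3.29 prior degrees of freedom), with contrasts for day and treatment and Benjamini-Hochberg adjustment over all of them; calls are adjusted p-values under 0.05, two-sided. The script was checked on made data with known answers. Relations of the leading probe sets to other measures within a day were tested by exact permutation (numpy 2.4.6, with ranks from scipy 1.17.1). The 7 genes, the lists and the tests were chosen with earlier results of these data known. All probe sets of a member were reported, with every array of the leading one, the 4 most and 2 least similar genes of each Period and cryptochrome gene, and up to 6 called genes of each list. Gene symbols came from the platform annotation (932 probe sets with several symbols and 9211 with none name no gene here), and all 7 genes matched RefSeq by gene ID. The promoter windows of Per2 and Csnk1d were not used here. Same-numbered arrays of different groups did not vary together (median r of -0.0471 over 45 pairs), so no pairing was used. Alternatives were array weights, quantile normalization of the centred RMA values, re-centring, a robust prior, the rod score as a covariate, fewer arrays, gene means, a replicate block, the methods' own tests and leaving out each array.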

Additional observations from a re-analysis of the deposited data

Results flagged for a closer look

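In 40 tests of the highest or lowest of the 9 arrays of a day, 1 for each probe set and day, 2 arrays stood far from the rest, where chance gives about 1 in 20. Per2 1417603_at read -0.218 on Dex day 7 replicate 3, with -0.029 as the nearest other array of day 7. Per3 1441445_at read 0.363 on Dex day 30 replicate 3, with -0.005 as the nearest other array of day 30, and this array also held the highest day 30 values of the Per3 probe sets 1442243_at (0.241) and 1458176_at (0.147), but not of the leading one (-0.304).

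For 5 probe sets all arrays of a steroid effect pointed one way at day 30 and the other way at day 7 relative to the BSS mean, 4 of 20 after TAA, where 8.29% of all probe sets did so, and 1 of 20 after Dex, where 5.69% did. Of Cry1, TAA differed from BSS by -0.197 at day 30 and by 0.338 at day 7, which gives -0.534 for the first minus the second. The same quantity was -0.364 for Cry2 after TAA (-0.127 at day 30, 0.237 at day 7), -0.266 for Csnk1d 1418889_a_at after TAA (-0.12 at day 30, 0.146 at day 7) and 0.121 for Per3 1460662_at after TAA (0.036 at day 30, -0.086 at day 7). It was 0.349 for Per2 1457350_at after Dex (0.149 at day 30, -0.2 at day 7). None of the 5 passed limma's interaction test (adjusted p = 0.994 for those after TAA and adjusted p = 0.9997 for that after Dex).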

How the results depend on the processing

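Of all values recomputed under another setting, 1279 kept direction and call or a similar count, 22 reversed, 18 lost and 14 gained a call or count. Small changes of a count, as from 3 to 4 or to 2 between the days, are among the 1279. The cause of the changes was not tested. Among the 20 probe sets, the count called between the days (3) was 5 with array weights (adding Per2 1457350_at and Csnk1d 1418889_a_at), 2 by the methods' t-test after adjustment (Per2 and Per3) and 1 after quantile normalization, where Per3 remained and Per1 (-0.75) and Per2 (-1.74) had an adjusted p = 0.0508. Calls in the F-test (1) were 2 with array weights, 4 by the methods' one-way analysis of variance at its own unadjusted threshold, and 0 after its Benjamini-Hochberg adjustment, after quantile normalization and for gene means. The call after Dex (1) became 0 with a replicate block, with quantile normalization, with only the compared arrays, for gene means and by the methods' t-test after adjustment, and 3 at the methods' unadjusted thresholds. After TAA (0) there was 1 with array weights (Per3), 1 with the rod score as a covariate (Per1) and 3 by the methods' thresholds; after BSS (0) there were 3 with array weights (Per2, Per3 and Csnk1e 1417175_at) and 2 by those thresholds, which also gave 1 for TAA against BSS at day 7 (Per1). Over all probe sets, the methods' analysis of variance at its own unadjusted threshold called 489. Their unadjusted t-test thresholds called 166 of all probe sets between the days after TAA, 144 after Dex and 275 after BSS. For TAA against BSS at day 7 these thresholds called 143 of all probe sets. The replicate block changed no other count of calls.

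Without single arrays the counts ranged from 3 to 4 between the days (4 without BSS day 30 replicate 2 or TAA day 30 replicate 3), 1 to 2 in the F-test (2 without BSS day 30 replicate 1), 0 to 1 after Dex (0 without BSS day 7 replicate 3, Dex day 7 replicate 1, 2 or 3, Dex day 30 replicate 2 or TAA day 30 replicate 1) and 0 to 1 after BSS (1 without BSS day 30 replicate 2). The differences between the days held their calls, from -1.33 to -1.15 for Per2, -0.83 to -0.75 for Per3 and -0.71 to -0.60 for Per1. Signs turned in values without a call. With the rod score as a covariate, Cry1 was -0.065 for Dex against BSS at day 7, Per1 0.10 for Dex at day 30 and Per2 0.026 for TAA at day 30, the last also 0.25 after quantile normalization. Single arrays gave ranges across 0 for the day difference of Csnk1e 1417176_at (-0.12 to 0.058), and for these differences from BSS: Per2 (-0.21 to 0.046) and Cry1 (-0.060 to 0.16) after Dex at day 7, Per2 (-0.033 to 0.23) and Per3 (-0.13 to 0.022) after TAA at day 7, Per1 (-0.17 to 0.13), Csnk1d (-0.030 to 0.18) and Csnk1e (-0.054 to 0.49) after Dex at day 30, and Per1 (-0.21 to 0.024) and Per2 (-0.26 to 0.26) after TAA at day 30. A filter on dim probe sets, which needs a level, was not run. Depth in the sense of signal over background is unknown for centred values, and 3 arrays a group left wide intervals, from 0.32 to 1.07 for the effect of TAA on Per1 at day 7.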
